A study of Sus scrofa with 16 samples.

Results

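Genes of pericytes and of vascular smooth muscle, together the mural cells of blood vessels, were followed in the hippocampus of preterm pigs with and without necrotizing enterocolitis (NEC), an inflammatory disease of the immature gut. The set was named by 10 gene symbols, taken for their known use as markers, with earlier results of these data known. A member was found where the pig Ensembl identifier of its symbol stood in the deposited table, which left 9 of the 10 members among 22815 distinct entries. Of these, 8 had values above 0, and all 8 were among the 13590 entries tested.

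The 16 pigs were crossbred from Danish Landrace, Large White and Duroc, delivered preterm by cesarean section and reared for about a week on human donor milk and parenteral nutrition. Lesions arose spontaneously, so the groups were defined by outcome and not by assigned treatment. No NEC pigs (5 pigs, 2 female and 3 male) had the lowest lesion grade in every gut region, Co-NEC pigs (5 pigs, 2 female and 3 male) had severe lesions in the colon alone, and Si-NEC pigs (6 pigs, 3 female and 3 male) had severe lesions in the small intestine, with or without the colon. The tissue was the whole left hippocampus, measured once per pig by RNA-seq, and pigs are named below by their number in the labels.

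Mural cells wrap the endothelium of blood vessels. Pericytes sit on capillaries inside the basement membrane they share with endothelial cells, and in the brain they take part in building and keeping the blood-brain barrier, while smooth muscle cells ring arteries and arterioles and set their tone. PDGFRB, the receptor for endothelial platelet-derived growth factor B, is needed to recruit mural cells to growing vessels, and NOTCH3, a Notch receptor, keeps arterial smooth muscle mature. ACTA2 (smooth muscle alpha-actin), TAGLN (transgelin, an actin-binding protein), CNN1 (calponin, a regulator of contraction) and MYH11 (smooth muscle myosin heavy chain) make up or attend the contractile apparatus. KCNJ8 and ABCC9 encode the pore and the sulfonylurea receptor subunit of a vascular ATP-sensitive potassium channel, and ANPEP, an ectopeptidase, and RGS5, a brake on G protein signalling, are used as pericyte markers.

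The values were FPKM, a fragment count scaled by transcript length and by the size of the library, so levels of different genes can be compared per length. The study gives a total of clean reads over all pigs. The depth of each pig is unknown, because the table holds no read counts and low values did not return whole reads. No NEC pig 230-15 and Si-NEC pig 223-15 stood apart from the rest, with FPKM sums of 864931 and 823320 against 544629 to 645197 in the other pigs, and median correlations with the other pigs of 0.902 and 0.933 against 0.949 to 0.960. The estimates that moved most when these pigs were left out are given both ways beside the results. The 5 hippocampal neuron genes tested summed to 734 to 1035 FPKM per pig and the 4 astrocyte genes tested to 917 to 1567 FPKM.

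All members that could be measured were present at modest levels. On the FPKM scale, TAGLN was highest with a mean of 13.9 ± 5.84 (SD, n = 16), followed by ACTA2 at 9.42 ± 3.58, NOTCH3 at 9.23 ± 1.54, PDGFRB at 8.40 ± 1.72, CNN1 at 5.20 ± 1.41, KCNJ8 at 3.74 ± 0.703, ABCC9 at 3.16 ± 1.09 and ANPEP at 1.47 ± 0.435. The ranges of neighbours in this order overlapped throughout. ACTA2 and TAGLN were also the most variable members across the pigs relative to their mean, with coefficients of variation of 38.0% and 42.1%, above those of 84.4% and 88.1% of all entries tested, while NOTCH3 had the lowest at 16.7%. By the ratio of highest to lowest pig, ABCC9 spread more widely (7.38) than TAGLN (5.32) and ACTA2 (4.44), through the low value of pig 230-15.

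RGS5 and MYH11 gave no level. The identifier that pairs with RGS5 was not among the table's entries, and RGS5 was not analysed here. The identifier that pairs with MYH11 was listed at 0 in all 16 pigs, which can be a failed estimate or a mismatch of name and identifier between genome releases, so neither a level nor a difference was drawn from it. The RefSeq order of genes (Sscrofa11.1) places KCNJ8 and ABCC9 next to each other.

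Of the contractile genes, ACTA2 read 14.5, 7.91, 5.55, 7.94 and 8.70 FPKM in No NEC pigs 540-14, 228-15, 230-15, 253-15 and 550-14. It read 7.51, 8.0, 4.0, 8.72 and 12.8 FPKM in Co-NEC pigs 225-15, 545-14, 552-14, 255-15 and 231-15, and 6.97 (lowest), 9.73 (median) and 17.8 FPKM (highest) in the 6 Si-NEC pigs. The high Si-NEC values were those of pigs 223-15, 246-15 and 224-15, yet No NEC pig 540-14 and Co-NEC pig 231-15 lay among them, and all groups overlapped.

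TAGLN, in the same order of pigs, read 16.2, 11.7, 16.2, 14.8 and 9.58 FPKM without NEC. The Co-NEC values were 8.49, 10.3, 5.31, 12.6 and 14.1 FPKM. The Si-NEC pigs ranged from 9.94 through a median of 15.0 to 28.3 FPKM. The Si-NEC pigs fell apart into 3 above 19 FPKM (28.3 in 223-15, 23.3 in 246-15 and 19.2 in 224-15), higher than every other pig of the series, and 3 between 9.94 and 10.8 FPKM.

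CNN1 was 4.52, 5.16, 5.98, 5.35 and 4.79 FPKM in the No NEC pigs. In the Co-NEC pigs it was 4.74, 4.95, 3.84, 5.72 and 4.51 FPKM. The Si-NEC pigs held both the lowest value of the series, 3.09 FPKM in 547-14, and the highest, 9.46 FPKM in 223-15, around a median of 5.05 FPKM. Pig 223-15 was thus the highest of all pigs for all 3 contractile members, and Co-NEC pig 552-14 was the lowest for ACTA2 and TAGLN.

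The 2 receptors varied less. PDGFRB read 6.07, 9.07, 6.22, 10.7 and 11.4 FPKM in the No NEC pigs and 6.04, 7.66, 7.40, 9.11 and 10.1 FPKM in the Co-NEC pigs. Its Si-NEC values ran from 6.70 to 10.2 FPKM with a median of 8.33. The No NEC pigs alone spanned nearly the whole range of the series, and the groups overlapped.

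NOTCH3 was 8.74, 9.50, 7.77, 11.5 and 11.5 FPKM without NEC and 7.75, 9.99, 9.77, 9.17 and 9.78 FPKM in Co-NEC pigs. Its Si-NEC values ran from 5.85 through 9.21 to 10.8 FPKM. Si-NEC pigs 223-15 (5.85) and 224-15 (7.09) were the lowest of the series, and the remaining pigs of the 3 groups were mixed.

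Of the channel subunits, KCNJ8 showed the tightest No NEC group, at 3.24, 3.92, 3.41, 3.07 and 3.26 FPKM. The Co-NEC pigs gave 4.21, 2.31, 3.42, 3.86 and 3.87 FPKM, and the Si-NEC pigs 3.16, 4.28 and 5.09 FPKM as lowest, median and highest. In Si-NEC, 4 of 6 pigs lay above every No NEC pig, while 539-14 and 226-15 lay within the No NEC range.

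ABCC9, the partner subunit, was spread most widely without NEC, at 3.42, 4.90, 0.675, 2.38 and 1.92 FPKM, with the low value in pig 230-15. The Co-NEC pigs read 4.98, 3.60, 3.86, 3.04 and 3.40 FPKM. The Si-NEC pigs read 2.37, 2.88 and 4.28 FPKM as lowest, median and highest. The Co-NEC pigs were all at 3.04 FPKM or above, and 4 of 6 Si-NEC pigs lay below every one of them.

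ANPEP was low throughout, at 1.75, 2.07, 0.930, 2.64 and 1.51 FPKM in No NEC pigs and 0.878, 1.42, 1.24, 1.43 and 1.22 FPKM in Co-NEC pigs. The Si-NEC pigs ran from 1.14 through 1.43 to 1.69 FPKM. The 3 highest values belonged to No NEC pigs 253-15, 228-15 and 540-14, but 230-15 of the same group was among the lowest.

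**Figure D1:**
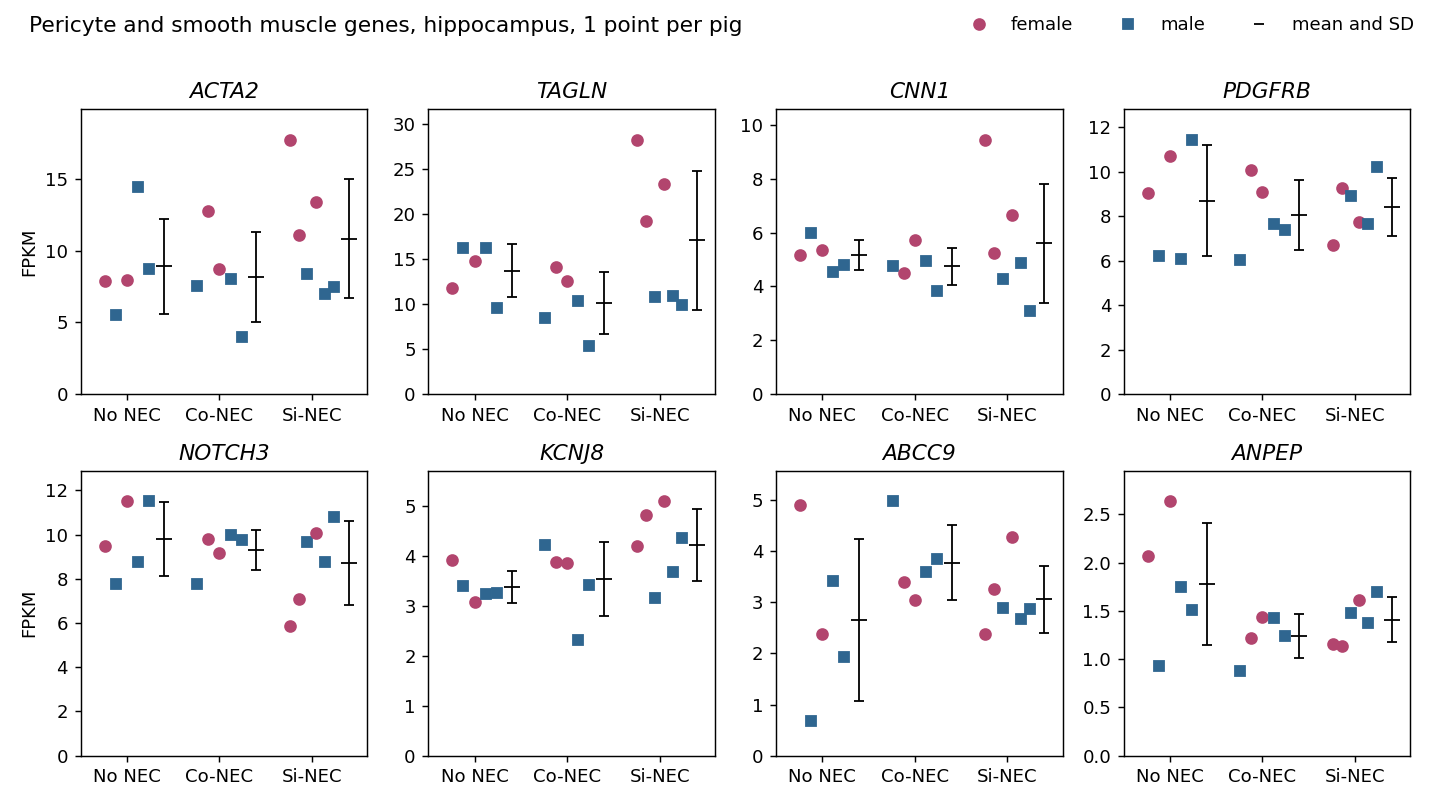
FPKM of the 8 measured members (1 panel each, vertical axis from 0) in No NEC (n = 5), Co-NEC (n = 5) and Si-NEC (n = 6) pigs. Circles are female and squares male pigs, and the black bar and whiskers are the group mean and SD. The groups overlap in every panel, and the Si-NEC points of ACTA2, TAGLN and CNN1 split into 3 higher females and 3 lower males.

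The design asked whether lesions of the small intestine, or of the colon alone, went with a different level of these genes. No member passed the study's threshold, an adjusted p of 0.2, in any of the 3 pairwise comparisons by limma on log2(FPKM + 0.5), and none had an unadjusted p under 0.05. The calls over all 13590 entries were almost as few. For Si-NEC against No NEC, 0.00736% of entries passed the adjusted threshold and 2.61% had an unadjusted p under 0.05. The same shares were 0.00736% and 3.44% for Co-NEC against No NEC, and 0.0147% and 5.64% for Si-NEC against Co-NEC. A count of 0 among 8 members is therefore close to that background and shows nothing particular to mural genes.

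The intervals show which changes these pigs could not resolve. For Si-NEC against No NEC, the largest estimates on the log2 scale were those of ABCC9 (0.32, 95% interval -0.38 to 1.03), KCNJ8 (0.27, -0.01 to 0.56) and ACTA2 (0.26, -0.33 to 0.85). The ABCC9 estimate was 0.011 without No NEC pig 230-15 and 0.56 without 228-15. ACTA2 was 0.44 without No NEC pig 540-14, 0.12 without 230-15, 0.11 without Si-NEC pig 223-15 and -0.037 without both 223-15 and 230-15, whereas KCNJ8 stayed between 0.22 and 0.34 without any single pig. With all pigs, KCNJ8 was the nearest to a difference. Its mean was 4.22 ± 0.716 FPKM in Si-NEC against 3.38 ± 0.327 in No NEC, with an unadjusted limma p of 0.0605, an adjusted p of 1, and a two-sided exact permutation p of 0.0455 (21 of 462 splits). The exact test, which was not adjusted for 24 comparisons of members and groups, and limma thus fell on opposite sides of 0.05. PDGFRB, with -0.01 (-0.41 to 0.39), and CNN1, with 0.04 (-0.44 to 0.52), had estimates near 0. ANPEP was at -0.22 (-0.63 to 0.20). Without 230-15 it was -0.37, with an unadjusted limma p of 0.0381 and an adjusted p of 0.994, and without both 223-15 and 230-15 it was -0.33.

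For Co-NEC against No NEC, the widest departures were ABCC9 at 0.59 (-0.17 to 1.35), TAGLN at -0.46 (-1.01 to 0.09) and ANPEP at -0.35 (-0.80 to 0.10) on the log2 scale. Their two-sided exact permutation p-values were 0.151, 0.127 and 0.135, where 5 pigs against 5 allow none below 0.00794. The ABCC9 estimate was 0.28 without No NEC pig 230-15, that of TAGLN -0.26 without Co-NEC pig 552-14, and that of ANPEP -0.23 without No NEC pig 253-15. Without 230-15, ANPEP was -0.51, with an unadjusted limma p of 0.0106 and an adjusted p of 0.806. KCNJ8 was level between these groups, at 0.04 (-0.29 to 0.37), and the same control pigs stood on the other side of the Si-NEC comparison.

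For Si-NEC against Co-NEC, TAGLN differed by 0.67 (-0.01 to 1.36), with means of 17.1 ± 7.73 and 10.1 ± 3.45 FPKM. Its unadjusted limma p was 0.0534, its adjusted p 0.867 and its two-sided exact permutation p 0.0974, and 3 of 6 Si-NEC pigs lay above every Co-NEC pig. The p was under 0.05 in 10 of 22 alternative fits, and the adjusted p was at least 0.394 in all of them. With sex as a covariate the difference was 0.58, with an unadjusted limma p of 0.00478 and an adjusted p of 0.839. Without pig 223-15 the difference was 0.51, with an unadjusted limma p of 0.116. ABCC9 went the other way, by -0.27 (-0.59 to 0.06, two-sided exact permutation p = 0.108), and by -0.17 without Co-NEC pig 225-15. Of 9 endothelial genes tested, a measure of vessel wall cells other than mural cells, 5 had higher and 4 lower means in Si-NEC than in Co-NEC, with a median of 0.058. PECAM1 (0.48) and ENG (0.44) were higher and SLCO1C1, a barrier transporter, was lower (-0.41), with unadjusted limma p-values of 0.0200, 0.0253 and 0.0318 and adjusted p-values of 0.858, 0.864 and 0.867. The summed level of the list was 78.9 to 91.4 FPKM in Co-NEC and 80.1 to 98.1 FPKM in Si-NEC. The part of vessel content in the TAGLN value was not tested, and in RNA from whole tissue fewer cells of a type and less RNA per cell cannot be told apart.

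**Figure D2:**
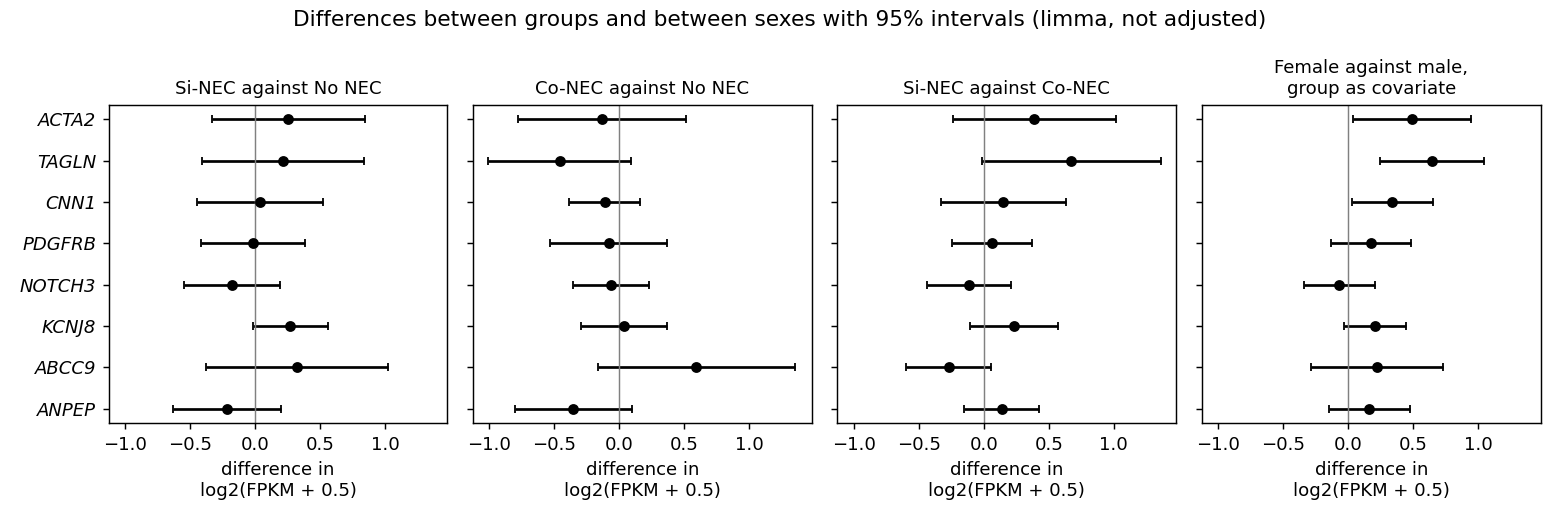
Difference in mean log2(FPKM + 0.5) for each member in the 3 group comparisons and between the sexes with group as a covariate. Points are estimates and lines 95% intervals from limma, not adjusted for the number of entries. Every interval of the group comparisons spans 0, and those of ACTA2, TAGLN and CNN1 lie above 0 between the sexes.

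The split of the Si-NEC pigs followed sex. In Si-NEC, TAGLN was 28.3, 19.2 and 23.3 FPKM in females 223-15, 224-15 and 246-15, and 9.94, 10.8 and 10.8 FPKM in males 547-14, 539-14 and 226-15. ACTA2 was 17.8, 11.1 and 13.4 FPKM against 7.48, 6.97 and 8.36 FPKM, and CNN1 9.46, 5.23 and 6.67 FPKM against 3.09, 4.88 and 4.30 FPKM. Every Si-NEC female lay above every Si-NEC male for all 3 contractile members, an arrangement that 10.8% of all entries shared in these pigs.

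In Co-NEC, both females lay above all 3 males for ACTA2, TAGLN and PDGFRB, as 11.7% of all entries did, and below them for ABCC9, as 13.7% did. In No NEC, only ANPEP had both females above all males, against 7.93% of all entries. The contractile members overlapped there between the sexes. The difference of the mean log2 value between females and males of TAGLN was -0.04 in No NEC, 0.74 in Co-NEC and 1.11 in Si-NEC. It was -0.16, 0.72 and 0.83 for ACTA2, and 0.05, 0.16 and 0.71 for CNN1.

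**Figure D3:**
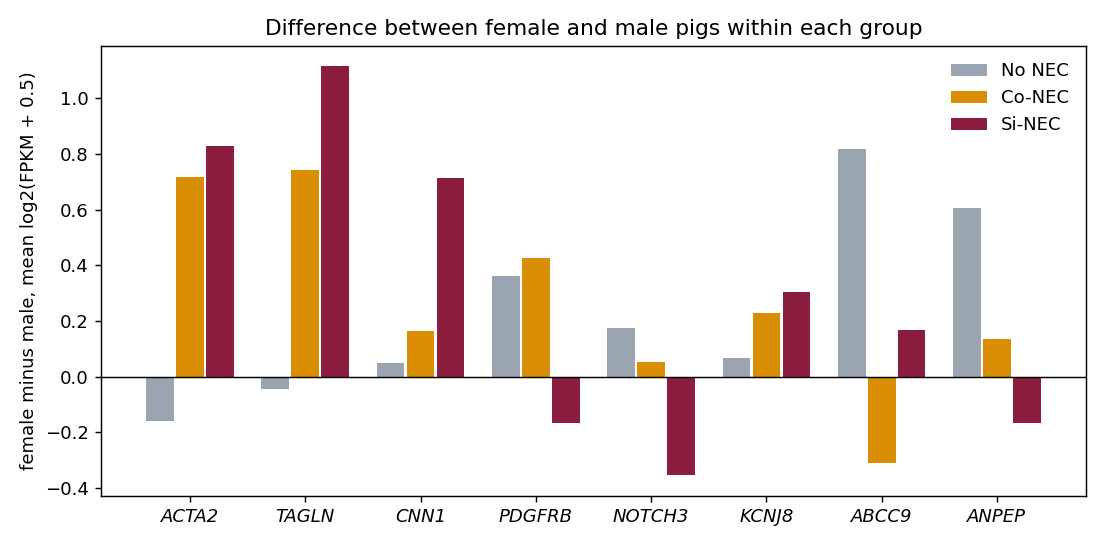
Mean log2(FPKM + 0.5) of females minus that of males within No NEC (2 females, 3 males), Co-NEC (2 and 3) and Si-NEC (3 and 3) pigs. The bars start at 0 and carry no error, since the cells hold 2 or 3 pigs. The 3 contractile members rise above 0 most in Si-NEC, whereas PDGFRB, NOTCH3 and ANPEP lie below 0 in Si-NEC and above 0 in No NEC.

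Whether the sexes differed by an unequal amount in 2 groups was tested with the interaction of group and sex in limma. Between Si-NEC and No NEC, the interaction was 1.16 for TAGLN (SE 0.33, unadjusted p = 0.00630), -0.77 for ANPEP (SE 0.32, unadjusted p = 0.0377) and 0.99 for ACTA2 (SE 0.44, unadjusted p = 0.0506), each with a limma adjusted p of 0.439. Between Si-NEC and Co-NEC it was -0.60 for PDGFRB (SE 0.24, unadjusted p = 0.0317, limma adjusted p = 0.484), and between Co-NEC and No NEC no member reached 0.05. TAGLN stayed under an unadjusted 0.05 in 21 of 21 alternative fits, ANPEP in 14 of 21 and PDGFRB in 13 of 21. Without pigs 223-15 and 230-15 the interactions of TAGLN, ANPEP, ACTA2 and PDGFRB were 0.90, -0.53, 1.13 and -0.49, with unadjusted limma p-values of 0.0247, 0.106, 0.00694 and 0.0567. The ACTA2 value was 0.65 without No NEC pig 540-14. No member passed the adjusted threshold, which 0.00736%, 0.00736% and 0.0% of entries passed in these comparisons. The counts of members under an unadjusted 0.05, 2, 1 and 0 of 8, stand beside backgrounds of 10.8%, 10.2% and 2.47%. In the same interactions, 10 further contractile smooth muscle genes tested went both ways, with 6, 5 and 7 above 0 and 4, 5 and 3 below. Of them, MYLK (-1.15) and ACTG2 (1.09) between Co-NEC and No NEC had unadjusted limma p-values of 0.00840 and 0.0364, with adjusted p-values of 0.926. TPM2 (0.69) between Si-NEC and No NEC had an unadjusted limma p of 0.0399 and an adjusted p of 0.439.

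A fit of females against males over all 16 pigs, with group as a covariate, was added after the values of the members had been seen. TAGLN averaged 17.7 ± 6.17 FPKM in the 7 females and 10.8 ± 3.47 in the 9 males, a difference of 0.64 (SE 0.19) on the log2 scale, with a two-sided exact permutation p within groups of 0.0130 (26 of 2000 arrangements). ACTA2 averaged 11.4 ± 3.61 against 7.89 ± 2.87 FPKM, a difference of 0.49 (SE 0.21, exact permutation p = 0.0620), and CNN1 6.01 ± 1.66 against 4.57 ± 0.801 FPKM, a difference of 0.34 (SE 0.15, exact permutation p = 0.0315). By limma, these 3 of the 8 members had unadjusted p-values of 0.00368, 0.0364 and 0.0342, beside 3.25% of all entries under 0.05. Their adjusted p-values were all 1.0, and of the 0.0515% of entries that passed 0.2 none was a member. The 10 further contractile smooth muscle genes tested went both ways between the sexes, 5 higher and 5 lower in females, with a median of 0.010 against -0.0022 for all entries. Of them, ACTG2 (0.46), a smooth muscle actin that can share reads with ACTA2, and SMTN (0.34) had unadjusted limma p-values of 0.0395 and 0.0456 and adjusted p-values of 1.0.

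The other members differed less between the sexes, with KCNJ8 at 0.21 (-0.03 to 0.44), ABCC9 at 0.22 (-0.29 to 0.73), PDGFRB at 0.18 (-0.13 to 0.49), ANPEP at 0.16 (-0.15 to 0.47) and NOTCH3 at -0.07 (-0.34 to 0.21). Sex went with the ending of the pig number, since all 7 females and 3 of the 9 males ended in 15. With the ending as a covariate, TAGLN, ACTA2 and CNN1 differed by 0.51, 0.57 and 0.21, with unadjusted limma p-values of 0.0691, 0.0746 and 0.303. Without pigs 223-15 and 230-15, their differences were 0.63, 0.34 and 0.28, and those p-values 0.00308, 0.133 and 0.0282.

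Lists of other cells also differed in their balance between the sexes, with no adjusted call. Of 12 further pericyte genes tested, 8 had higher and 4 lower means in females (median 0.048), and CD248 (0.61), an endosialin of pericytes and fibroblasts, and CSPG4 (0.30), a proteoglycan of pericytes and oligodendrocyte precursors, had unadjusted limma p-values of 0.00364 and 0.00934. Of 9 endothelial genes tested, 6 had higher and 3 lower means (median 0.070), with ENG (0.39) and PECAM1 (0.36) at unadjusted limma p-values of 0.0174 and 0.0357. All 4 astrocyte genes had higher means in females and all 5 hippocampal neuron genes lower ones (medians 0.16 and -0.091). Among these, only PROX1 (-0.36), a factor of dentate granule neurons, was under 0.05, with an unadjusted limma p of 0.00590. All 7 meningeal and perivascular fibroblast genes tested had higher means in females, with a median of 0.37 against -0.0022 for all entries, and the unadjusted limma p was under 0.05 for ISLR (0.59), COL3A1 (0.59), COL1A2 (0.37) and FBLN1 (0.29). The summed level of that list ran over 33.3 to 90.9 FPKM in No NEC, 38.6 to 55.2 in Co-NEC and 32.2 to 56.3 in Si-NEC. All 5 myeloid genes tested had higher means in females too, among them S100A8, a calgranulin of neutrophils and activated myeloid cells. Between the sexes S100A8 differed by 0.81 and CD14 by 0.53, with unadjusted limma p-values of 0.0419 and 0.0210. S100A8 read 14.8, 21.2 and 25.0 FPKM in Si-NEC females 223-15, 224-15 and 246-15 against at most 7.11 FPKM in any other pig. In Co-NEC the order was reversed, at 0.734 and 0.918 FPKM in females and 1.21, 2.31 and 1.67 FPKM in males. The mean log2 value of S100A8 in Si-NEC exceeded that of Co-NEC pigs by 2.47 and that of No NEC pigs by 2.24. The unadjusted limma p-values were 0.000513 and 0.00148, without an adjusted call. The study reported S100A8 as raised in Si-NEC by RNA-seq and by qPCR. Summed myeloid levels were 15.1 to 24.1 FPKM in No NEC, 14.4 to 17.8 in Co-NEC and 11.3 to 62.0 in Si-NEC. No NEC male 230-15, which stood apart from the rest, was the lowest of all pigs for CD248 (1.02 FPKM), CSPG4 (3.76), ENG (5.18) and COL3A1 (2.16). How far the differences of these lists rested on that pig, or on the ending of the pig number, was not tested. The part of any of these cells in the contractile values was not tested.

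The members did not vary as one set across the pigs. Pearson's r of the log2 values, given as a description over 16 pigs that share their table and scaling, was 0.79 for TAGLN with ACTA2, 0.76 for TAGLN with CNN1 and 0.52 for ACTA2 with CNN1 (Spearman's rho 0.62, 0.73 and 0.33). With the mean of each group and sex removed, these values were 0.53, 0.55 and 0.10, and without pigs 223-15 and 230-15 they were 0.87, 0.63 and 0.43. PDGFRB, NOTCH3 and ANPEP made a second set, with r of 0.63 for PDGFRB with NOTCH3, 0.64 for NOTCH3 with ANPEP and 0.52 for PDGFRB with ANPEP, 0.70, 0.73 and 0.36 with the means removed, and 0.56, 0.63 and 0.40 without those pigs. Values of this size are not particular to the sets, though many others were smaller. With the mean log2 value of the neuron list, CNN1 had an r of -0.82 (-0.62 without those pigs). TAGLN and CNN1 had 0.70 and 0.68 with the myeloid list (0.61 and 0.57 without those pigs), and NOTCH3 had -0.69 with the astrocyte list (-0.63).

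Between the contractile members and the others, 6 of 15 correlations were above 0 and 9 below, from -0.59 (CNN1 with NOTCH3) to 0.40 (TAGLN with KCNJ8). Without pigs 223-15 and 230-15 the balance turned, to 10 above 0 and 5 below, and with the means of group and sex removed it was 2 above and 13 below. The lowest also rested on those pigs, since CNN1 with NOTCH3 was -0.16 without 223-15 and 230-15. KCNJ8 and ABCC9, the subunits of one channel, had an r of 0.24, and 0.33 without those pigs. The same pigs also carried PDGFRB with ABCC9, at 0.01 with them and -0.63 without.

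**Figure D4:**
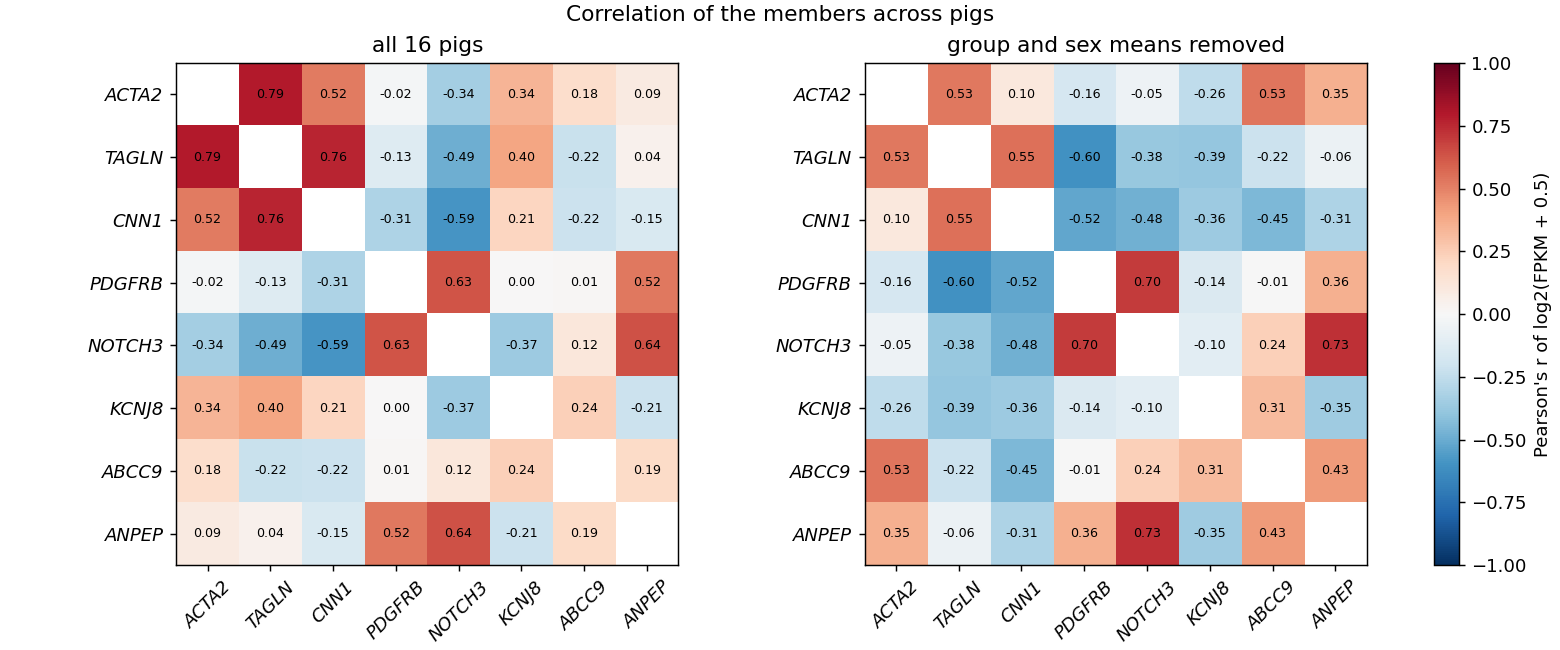
Pearson's r of log2(FPKM + 0.5) for each pair of the 8 members across 16 pigs, left as measured and right after removing the mean of each group and sex. Red is positive and blue negative. ACTA2, TAGLN and CNN1 form one red block and PDGFRB, NOTCH3 and ANPEP another on the left, and ACTA2 with CNN1 falls from 0.52 to 0.10 on the right.

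**Figure D5:**
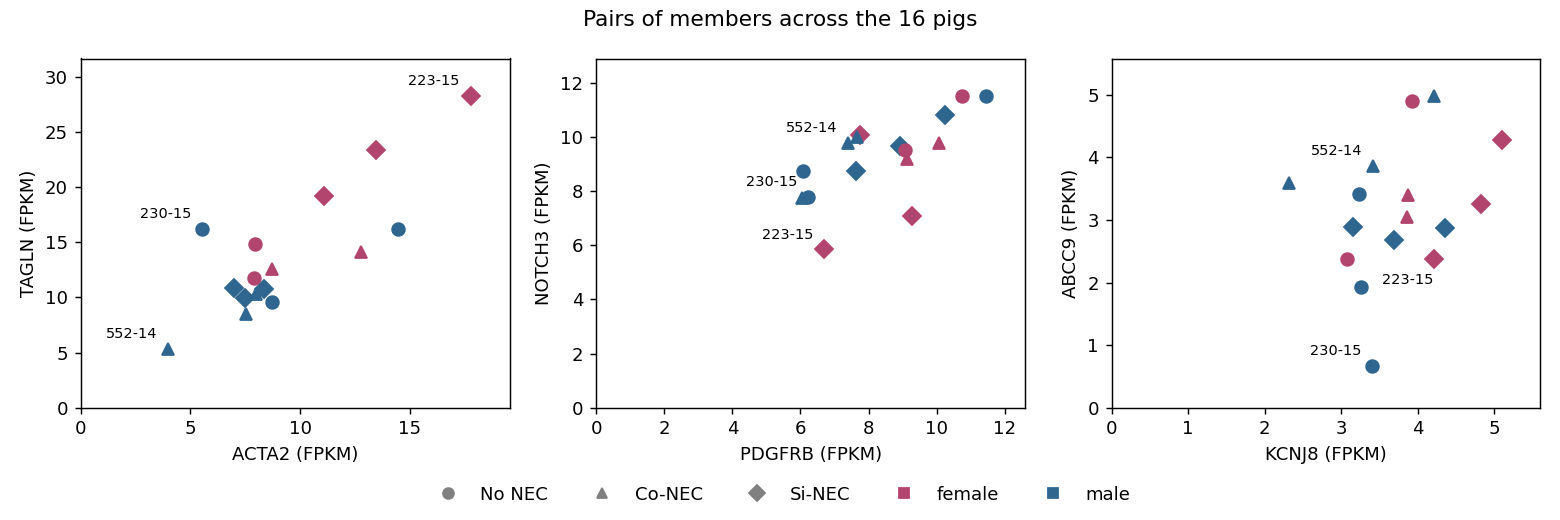
FPKM of 3 pairs of members in the 16 pigs, with group shown by the shape of the point and sex by its colour. Si-NEC pig 223-15 is at the top right for ACTA2 and TAGLN and at the lower edge for NOTCH3, Co-NEC pig 552-14 is at the lower left for the contractile pair, and No NEC pig 230-15 has the lowest ABCC9 at an ordinary KCNJ8.

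Of 8304 named entries with enough signal, those closest to the mean log2 value of the contractile members were CTSH (r = 0.82), TPM2 (0.80), TINAGL1 (0.79), CASTOR1 (0.79) and YBX3 (0.78). TPM2 encodes a muscle tropomyosin and CTSH a lysosomal cysteine protease. Without pigs 223-15 and 230-15 these values ran from 0.69 to 0.79. Closest to the mean of the receptor, channel and peptidase members were KATNIP (0.92), SPRED2 (0.91), HSPG2 (0.90), ANKFY1 (0.89) and TMEM184B (0.89), which dropped to between 0.55 and 0.70 without those pigs. HSPG2 encodes perlecan, a proteoglycan of basement membranes.

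Further genes of the same cells and pathways, listed for their known roles, gave no adjusted call either. Of 18 further contractile smooth muscle genes, 10 were tested. For Si-NEC against No NEC, 8 were higher and 2 lower with a median of 0.09, against 0.02 for all entries, and none had an unadjusted limma p under 0.05. For Co-NEC against No NEC, 6 were higher and 4 lower with a median of 0.02. For Si-NEC against Co-NEC, TPM2 (0.47), SMTN (smoothelin, 0.41) and DES (desmin, 0.43) had higher means and KCNMB1, a subunit of the large-conductance calcium-activated potassium channel, a lower one (-0.32), each with an unadjusted limma p between 0.0299 and 0.0445 and an adjusted p of 0.867. The summed level of the 10 genes overlapped between the groups, at 102 to 118 FPKM in No NEC, 103 to 120 in Co-NEC and 111 to 131 in Si-NEC.

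Of 20 further pericyte genes, 12 were tested, with medians of 0.14, 0.07 and 0.07 for the 3 comparisons in the order above and 7 higher and 5 lower in each. Only RGS4, a relative of RGS5 that neurons express strongly, had an unadjusted limma p under 0.05, at -0.24 in Si-NEC against Co-NEC (adjusted p = 0.867). VTN, a vitronectin gene used to mark pericytes, lay between 0 and 0.843 FPKM. ENPEP, a pericyte aminopeptidase named here after its values were seen, was 96.3 FPKM in Si-NEC pig 226-15 and 16.3 FPKM in Co-NEC pig 231-15, against at most 3.06 FPKM elsewhere. The study listed ENPEP among its differentially expressed genes for Si-NEC against No NEC, whereas the limma fit here gave it no adjusted call. ANPEP, KCNJ8 and PDGFRB in pig 226-15 were neither the highest nor the lowest of the series, at 1.47, 3.16 and 8.91 FPKM.

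The partners of the receptors gave no adjusted call between the groups either. Of 5 further PDGF genes 4 were tested. PDGFRA, the receptor of oligodendrocyte precursors and fibroblasts, differed by -0.33 for Si-NEC against Co-NEC, with an unadjusted limma p of 0.0365 and an adjusted p of 0.867 over all entries. Of 14 further Notch genes 7 were tested and none reached an unadjusted 0.05 between groups, with medians of 0.14, 0.02 and -0.07. In the interaction of group and sex, RBPJ of that list had 0.84 between Si-NEC and No NEC and 0.65 between Si-NEC and Co-NEC. Its unadjusted limma p-values there were 0.00640 and 0.00708, and its adjusted p-values 0.439 and 0.484. Between the sexes, HEY2, a Notch target of vessels, and DLL4, an arterial Notch ligand, had higher means in females by 0.29 and 0.41, with unadjusted limma p-values of 0.0151 and 0.0279 and an adjusted p of 1.0 for both. No NEC male 230-15 was the lowest of all pigs for DLL4, at 0.890 FPKM. Of the other ATP-sensitive potassium channel genes, ABCC8, the sulfonylurea receptor of neurons and beta cells, was tested, and differed by -0.034, -0.0017 and -0.032 in the 3 comparisons. The interaction of group and sex for ABCC8 between Si-NEC and Co-NEC was -0.73, with an unadjusted limma p of 0.0474 and an adjusted p of 0.487. The endothelial list had 9 of 16 genes tested, with 4 higher and 5 lower for Si-NEC against No NEC and for Co-NEC against No NEC. ERG, an endothelial transcription factor, differed by -0.42 for Si-NEC against No NEC, with an unadjusted limma p of 0.0304 and an adjusted p of 1.0.

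Near-identical relatives can share reads with some members. ACTB, the cytoplasmic actin, stood at 1199 to 2240 FPKM, far above ACTA2, while the muscle actins ACTA1, ACTC1 and ACTG2 lay at 3.35 to 8.60, 0.617 to 3.02 and 0.0763 to 1.26 FPKM. How such reads were divided was not given in the sources used here, so the ACTA2 level is uncertain to that extent. No level is given here for TAGLN2 and TAGLN3, relatives of TAGLN, and the sharing of reads with them was not tested. The study reported TAGLN2 as raised in Si-NEC pigs by qPCR.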

How the data were processed

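Total RNA of left hippocampi was sequenced as paired reads. The authors trimmed the reads, aligned them to Sscrofa10.2 with TopHat2 2.1.1 and estimated expression with Cufflinks 2.2.1, per the labels and methods, and the deposited values are FPKM per gene and pig. Counts and the depth of each pig were not available, so no counting error could be computed. Scaling between pigs and strand use were not given in the sources used here.

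Of 24594 entries, 1779 identical to another in every value were dropped, and limma was run on log2(FPKM + 0.5) of those averaging 0.5 FPKM or more, a scale that understates changes of low genes. Symbols came from a reference table that named 11001 of 21956 identifiers. Each pair of groups was fitted alone with limma 3.58.1 in R 4.3.3 (lmFit, eBayes with trend) with Benjamini-Hochberg adjustment over 13590 entries and a threshold of 0.2. Interactions of group and sex and a fit of sex with group as a covariate used the same steps. Single members were also compared by two-sided exact permutation tests. The fits were tested on simulated data. Litter was not given in the labels, so p-values treat pigs as independent. Groups and sex came from the labels, which do not say what the ending of a pig number stands for.

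The members and lists were chosen with earlier results of these data known. All members are named. Genes of other lists are named for an unadjusted p under 0.05 (at most 3 per list and comparison, plus KCNMB1 and FBLN1, the fourth of theirs, added after their values were seen), and the 5 entries closest in pattern to each set of members. For the interactions, such genes are named for the contractile, Notch and potassium channel lists only. Not given above were CD14, lower in Co-NEC than in No NEC (-0.43), and GAD1, lower in Si-NEC than in No NEC (-0.19). Their unadjusted limma p-values were 0.0110 and 0.0432. Alternatives were pseudocounts of 0.1 and 1, no filter, a minimum mean of 1 FPKM, rescaling by the median of ratios, a joint fit of the 3 groups, covariates for sex, number ending and block of neighbouring numbers, array weights, and leaving out single pigs or 223-15 and 230-15 together. A pair of groups that held only 1 of 223-15 and 230-15 lost that pig alone. Leaving out both then repeated the fit without that pig, and the counts of alternatives hold each. The fit of sex and its alternatives were added after the values were seen. Python 3.11.15 with numpy 2.4.6, pandas 2.3.3, scipy 1.17.1 and matplotlib 3.10.9 was used. No sequence of the members was used here.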

Additional observations from a re-analysis of the deposited data

Results flagged for a closer look

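The interaction of sex and group stood out for 3 members by an unadjusted limma p under 0.05, the criterion for listing them here. Between Si-NEC and No NEC it was 1.16 for TAGLN (adjusted p = 0.439), where females exceeded males in Si-NEC by 1.11 and differed by -0.04 in No NEC. It was -0.77 for ANPEP (adjusted p = 0.439), where both No NEC females exceeded every No NEC male and the Si-NEC sexes differed by -0.17. Between Si-NEC and Co-NEC it was -0.60 for PDGFRB (adjusted p = 0.484), with differences between females and males of -0.17 and 0.43. Each group held 2 or 3 pigs of a sex, and 10.8% and 10.2% of all entries had an unadjusted p under 0.05 in these interactions. No single pig was far enough from the rest of its group to be listed as an outlier for any of the 8 members in 24 groups of values examined, where chance would list about 1 in 20.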

How the results depend on the processing

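No member passed an adjusted p of 0.2 in any comparison under any alternative run. The sign of an estimate changed in 42 of 1224 values of single members, and the cause was not tested. Precision is limited by 2 to 6 pigs per cell and by the unknown depth of each pig.

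Members under an unadjusted 0.05 numbered 0 in the 3 group comparisons. For Co-NEC against No NEC the count was 1 with array weights and 1 without 230-15 (ANPEP in both), since 223-15 was not in these groups. For Si-NEC against Co-NEC it was 1 when rescaled, with all 3 groups in one fit, and with sex, number ending or number block as a covariate (TAGLN in each), and 1 with array weights (ABCC9). Leaving out single pigs gave 0 to 1 in each comparison. For the interaction of sex in Co-NEC against No NEC it went from 0 to 1 without 223-15 and 230-15, and in Si-NEC against Co-NEC from 1 to 0 in one fit and 2 with array weights. Without single pigs these interactions gave 1 to 3 (Si-NEC against No NEC), 0 to 1 (Co-NEC against No NEC) and 0 to 2 (Si-NEC against Co-NEC). Between the sexes 3 members became 0 with number ending or block as a covariate and 1 (ACTA2) in pigs whose number ended in 15 alone, and 1 to 4 without single pigs.

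Entries past an adjusted 0.2 for Si-NEC against No NEC rose from 1 to 2 with number ending as a covariate and to 4 with array weights, and were 1 to 3 without single pigs. For Co-NEC against No NEC they rose from 1 to 4 without a filter and were 1 to 2 without single pigs. For Si-NEC against Co-NEC they went from 2 to 1 with a pseudocount of 0.1, no filter, one fit, each of the covariates, without 223-15 and 230-15, and at a threshold of 0.05, to 201 with array weights, and to 1 to 12 without single pigs. For the interactions they went from 1 to 4, 0, 4 and 3 (Si-NEC against No NEC; no filter, one fit, array weights, without 223-15 and 230-15), from 0 to 5, 1, 1 and 2 (Co-NEC against No NEC, same order), and from 1 to 0 with a pseudocount of 1 and 9 without a filter (Si-NEC against Co-NEC). Without single pigs they were 1 to 10, 0 to 11 and 0 to 4.

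Entries under an unadjusted 0.05 with array weights were 741 (from 355) for Si-NEC against No NEC, 1317 (from 467) for Co-NEC against No NEC, 2159 (from 767) for Si-NEC against Co-NEC, 708 (from 336) for the interaction in Co-NEC against No NEC and 1062 (from 441) between the sexes. One fit gave 499 for Si-NEC against Co-NEC, and 2355 (from 1461) and 896 (from 1383) for the interactions in Si-NEC against No NEC and Co-NEC. Without 223-15 and 230-15 they were 1204 for Si-NEC against Co-NEC, 959 for the interaction in Si-NEC against No NEC and 716 between the sexes, and pigs with numbers ending in 15 gave 279. Without single pigs they were 236 to 581, 246 to 1018 and 489 to 1204 for the group comparisons in the order above, and 423 to 2163, 207 to 894 and 413 to 2054 for the interactions.

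Estimates that changed sign, on the log2 scale, were as follows. For Si-NEC against No NEC, ACTA2 became -0.037 and CNN1 -0.066 without 223-15 and 230-15, and CNN1 was -0.0021 with sex as a covariate and -0.086 with array weights. Without single pigs CNN1 ran from -0.12 to 0.18 and PDGFRB from -0.12 to 0.091. For Co-NEC against No NEC, single pigs moved ACTA2 from -0.30 to 0.086, PDGFRB from -0.19 to 0.024 and KCNJ8 from -0.023 to 0.16. For Si-NEC against Co-NEC, CNN1 was -0.0046 to 0.29 without single pigs, the lowest without 223-15, and PDGFRB -0.025 to 0.15. For the interaction in Co-NEC against No NEC, PDGFRB was -0.012 when rescaled and NOTCH3 0.10 with array weights, and single pigs moved CNN1 from -0.042 to 0.27, PDGFRB from -0.21 to 0.22, NOTCH3 from -0.27 to 0.012 and KCNJ8 from -0.042 to 0.33. For that in Si-NEC against Co-NEC, ACTA2 was -0.16 with array weights and -0.061 without 223-15 and 230-15, and ran from -0.15 to 0.40 and KCNJ8 from -0.090 to 0.28 without single pigs. Between the sexes, NOTCH3 was 0.085 with number ending as a covariate and 0.091 in pigs ending in 15, and -0.13 to 0.012 without single pigs.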
